A study of Mus musculus with 22 samples.

Results

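Chromatin loops join distant sites of a chromosome. In the model of loop extrusion, the cohesin ring reels in DNA until it meets CTCF, a zinc finger protein that stops it most readily where the CTCF motifs of both loop ends, the anchors, point towards each other. Such loops are dissolved in mitosis, when CTCF and cohesin largely leave the chromosomes, and are built again as cells enter G1. Loops whose anchors both hold CTCF and cohesin, and of which at most 1 anchor holds a cis-regulatory element (CRE, a promoter or enhancer), were called structural loops by the authors, and those studied here have anchors more than 200 kb and at most 500 kb apart. This gave 1804 loops out of 4837 structural loops and out of 16370 loops in all, with a median size of 310 kb.

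All groups were G1E-ER4 cells, a mouse line of GATA1-null erythroblast origin in which both CTCF alleles carry an auxin-inducible degron and mCherry, and which express the auxin receptor OsTiR. Cells were held in prometaphase with nocodazole, and the +auxin cultures had auxin for the last 4 h of the arrest and after release, so that CTCF was removed, whereas the -auxin cultures had none. Cells were sorted by DNA content, by a mitotic marker in prometaphase, and by mCherry, positive for -auxin and negative for +auxin samples, at 0 min (prometaphase) and, after release, at 30 min (ana/telophase), 60 min (early-G1) or 120 min (mid-G1), and analysed by in situ Hi-C, which sequences pairs of DNA ends joined to each other because they were neighbours in the nucleus. The sample protocol gives 25 min for ana/telophase, and these cells came from a separate line that also carries a GFP-tagged mitotic degron. Each mid-G1 condition had 3 libraries and each other condition 2, which the authors merged into 8 contact maps. The cell type was not checked here, since contact maps hold no expression of marker genes.

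Loop strength is the number of observed contacts over the number expected from the local surroundings, as the mean of 9 pixels around the summit, so that 1 means no enrichment. The loop table used here holds 1 value per loop and merged map, and maps of single libraries were not analysed here, so no difference between treatments was tested, and the contacts behind a single value are not in the tables used. The SD given after a median is that of the 20 single-chromosome medians, and so measures how the genome varies rather than how cultures do. The 95% Wilson interval given after a share covers counting error and treats loops as independent, although many share an anchor. The loops were called on these same maps, and 1791 were called in a -auxin map, so their -auxin strength was selected to be high where they were called. Only 13 were called in +auxin maps alone (0.721%, all loops 14.6%), so this selection also enters the changes with auxin and their shares. Of the 1804 loops, 1428 have a summit of 10 kb bins and 376 (20.8%) of 25 kb bins, and strengths at the larger bins were lower.

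To show what lies at the anchors, the mm9 sequence in the 30 kb window around each anchor midpoint, the window in which the authors looked for CTCF and cohesin peaks, was searched on both strands for a CTCF core motif of 12 letters. The sequences below are those of the loops named in this report whose windows each held exactly 1 match. They are read 5′ to 3′ on the strand of the motif, with the core motif in capitals and 9 bases of flank on each side. The first pair belongs to a 270 kb loop on chromosome 15 that was among the strongest in ana/telophase and mid-G1 -auxin cells. The second belongs to a 400 kb loop on chromosome 13 that was among those most weakened by auxin. The third belongs to a 450 kb loop on chromosome 8 that was strong in every map.
Chromosome 15, upstream anchor, forward strand, chr15:39692858-39692887: taatatgcaCCACTAGATGGCtctgtcctc
Chromosome 15, downstream anchor, reverse strand, chr15:39975850-39975879: cagtgtgtaCCACCAGATGGCacaattcga
Chromosome 13, upstream anchor, forward strand, chr13:114057016-114057045: tcacgttgtCCACTAGAGGGCgggcctact
Chromosome 13, downstream anchor, reverse strand, chr13:114460098-114460127: cagtctctgCCACCAGGTGGCagtcacaac
Chromosome 8, upstream anchor, forward strand, chr8:73803095-73803124: gagggctgaCCAGTAGATGGCagggcccat
Chromosome 8, downstream anchor, reverse strand, chr8:74264458-74264487: gagggctgaCCAGTAGATGGCagggcccat
In all 3 loops the motif was on the forward strand upstream and on the reverse strand downstream, so that the pair points into the loop. The chromosome 15 and chromosome 13 sites lie outside exons and introns of protein-coding genes, and the upstream chromosome 8 site lies in an intron of Myo9b, which encodes an unconventional myosin. A match is a description of the sequence and not of bound CTCF.

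Across the loops the inward-pointing strand was the more frequent at either anchor, although most loops lacked the motif at 1 or both anchors. The core motif was found in 47.1% of the 3608 anchor windows, against 13% of 30 kb tiles of the genome. The share of windows was 33.1% for all loops, 45.0% for short (up to 200 kb) and 48.3% for long (above 500 kb) structural loops. The authors' definition requires CTCF with cohesin in these windows, so the excess over tiles and all loops is not independent of how loops were chosen. In upstream windows the motif lay on the forward strand in 38.3% of loops and on the reverse strand in 14.5%. In downstream windows the order was turned, with 16.4% forward and 37.6% reverse. Genome tiles held the motif forward in 6.78% and reverse in 6.99%. Over all loops the upstream shares were 23.8% forward and 12.5% reverse, and the downstream shares 12.1 and 25.0%. The motif was present at both anchors of 418 loops (23.2%, interval 21.3 to 25.2%), at 1 anchor of 863 and at neither anchor of 523. It was at both anchors in 12.4% of all loops, 20.3% of short and 22.9% of long structural loops and 21.4% of dual-function loops of the same size, whose anchors both hold CTCF with cohesin and a CRE. The share for the 200 to 500 kb structural loops depends on the search, with 11.1% in the anchor summit alone and 2.49% with a 9-letter motif. Among 300 loops whose windows each held it on a single strand, 175 (58.3%, interval 52.7 to 63.8%) were convergent, 116 tandem and 9 divergent. The convergent share of such pairs was 58.5% in short and 62.8% in long structural loops, 48.2% (interval 40.8 to 55.7%) in the 170 of dual-function loops and 50.9% over all loops. With the 9-letter motif it was 37.5% of 40 pairs in the 200 to 500 kb structural loops, and so no longer the majority.

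**Figure D1:**
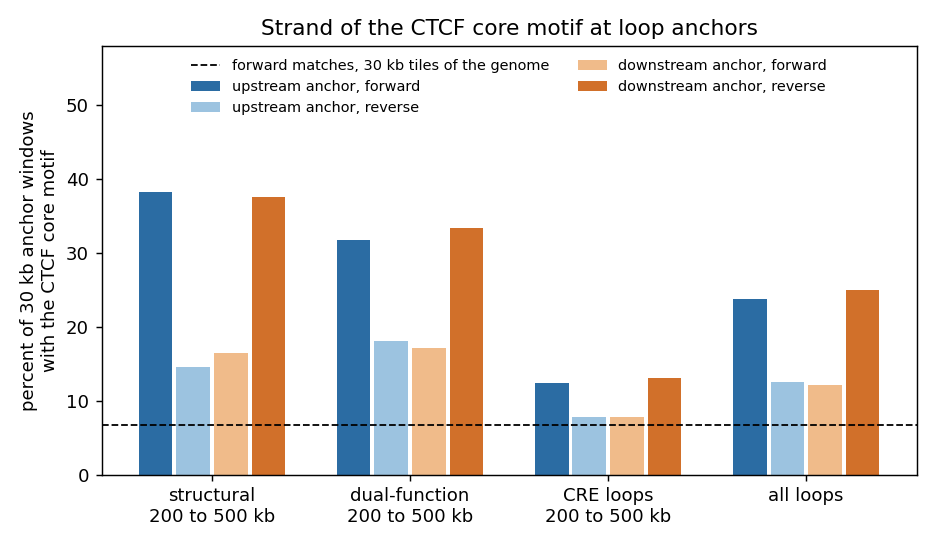
Percent of 30 kb anchor windows that hold the CTCF core motif on the forward or the reverse strand (bars, vertical axis) for structural, dual-function and CRE loops of 200 to 500 kb and for all loops, with the share of genome tiles that hold it on the forward strand (6.78%, dashed line). In structural loops the inward-pointing strand was found in 38.3% of upstream and 37.6% of downstream windows, above the outward-pointing strand at 14.5 and 16.4%.

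Motif orientation went with small differences in strength. The 175 convergent loops had a median mid-G1 -auxin strength of 2.89 (quartiles 2.25 and 3.63), the 116 tandem loops 2.61 (2.03 and 3.43) and the 9 divergent loops 2.58. With auxin the medians were 1.37, 1.39 and 1.1, and the median log2(+auxin/-auxin) was -1.03, -0.91 and -1.09. The quartile ranges overlap and the SD of the chromosome medians was 0.43 for convergent and 0.35 for tandem loops, so these orders do not stand out from the spread.

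In -auxin cells the loops were built up step by step. Their median strength was 1.09 ± 0.04 (SD of chromosome medians) in prometaphase and 1.83 ± 0.10 in ana/telophase. It was 2.36 ± 0.15 by early-G1 and 2.70 ± 0.17 by mid-G1. At the first stage 620 of the 1804 loops (34.4%, all loops 36.6%) were below 1, and by mid-G1 no loop was (all loops 4.95%). A strength of at least 2 was reached by 20 loops in prometaphase, and then by 704 (39.0%, all loops 22.3%), 1201 (66.6%, all loops 39.1%) and 1403 loops (77.8%, all loops 44.8%). As a share of the mean rise from prometaphase to mid-G1, 48.3% ± 2.7 (SD over chromosomes) was reached by ana/telophase and 77.7% ± 3.5 by early-G1. Mid-G1 was the strongest of the 4 stages for 1450 loops (80.4%, interval 78.5 to 82.1%), early-G1 for 327, ana/telophase for 24 and prometaphase for 3, and 1296 loops (71.8%) were stronger at each stage than at the one before. Over all loops, the strongest stage was mid-G1 for 57.8%, and 47.6% were stronger at each stage than before.

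With auxin most of this build-up was missing. Median strengths were 1.03 ± 0.03, 1.22 ± 0.05, 1.3 ± 0.05 and 1.34 ± 0.07 at the 4 stages. The mean rise from prometaphase was 26.2% of that in -auxin cells at the first post-mitotic stage (SD over chromosomes 6.0%), 22% at the second (3.6%) and 20% at the last (4.2%). In CTCF-depleted mid-G1 cells 615 loops (34.1%, all loops 43.1%) had a strength of at least 1.5, 117 (6.49%, all loops 14.0%) of at least 2, and 251 (13.9%, all loops 12.8%) lay below 1. Mid-G1 was the strongest +auxin stage for 761 loops (42.2%, interval 39.9 to 44.5%) and prometaphase for 230, beside 37.7 and 7.53% of all loops. Stronger at each stage than at the one before were 390 loops (21.6%), about the share among all loops (21.7%).

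**Figure D2:**
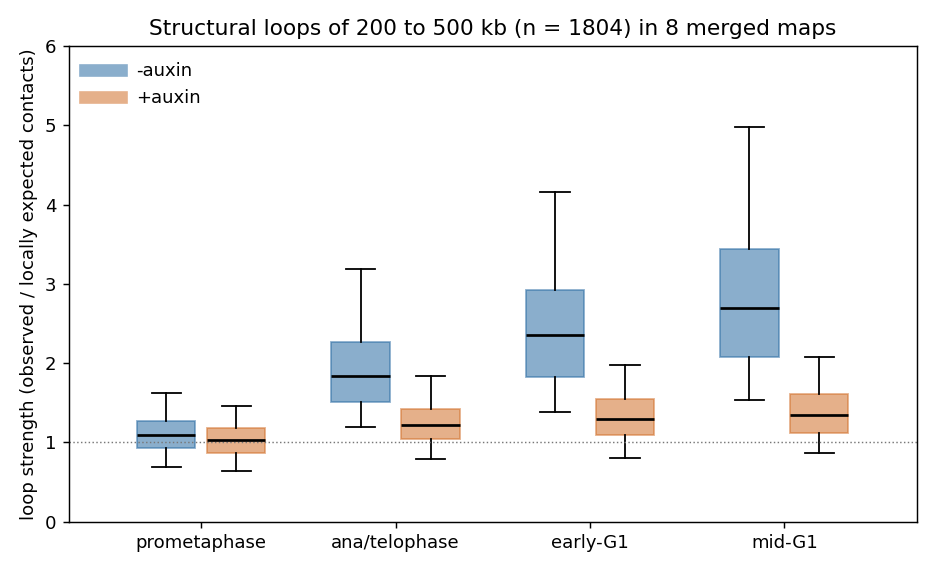
Loop strength (vertical axis, observed over locally expected contacts) of the 1804 structural loops of 200 to 500 kb in each of the 8 merged maps, by stage and treatment. Boxes span the quartiles, black lines are medians, whiskers reach the 5th and 95th percentiles, and the dotted line marks a strength of 1; the -auxin medians lie at 1.09, 1.83, 2.36 and 2.70 and the +auxin medians at 1.03, 1.22, 1.3 and 1.34.

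The gap between the treatments was wider at each later stage. The median log2(+auxin/-auxin) was -0.10 ± 0.07 (SD of chromosome medians) in prometaphase and -0.59 ± 0.06 in ana/telophase. It reached -0.82 ± 0.09 in early-G1, then -0.98 ± 0.09 in mid-G1, where the -auxin strength was 1.97-fold that with auxin. In mid-G1 the median of every chromosome was below 0, from -1.22 on chromosome X to -0.88 on chromosome 11. Loops were weaker with auxin in 58.9% of cases in prometaphase and in 95.7, 98.3 and 98.5% at the later stages, beside 54.4, 73.6, 74.7 and 77.1% of all loops. At all 3 post-mitotic stages 1704 loops (94.5%, all loops 61.4%) were weaker. The median log2 change over all loops was -0.04, -0.21, -0.32 and -0.38 at the 4 stages.

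Counted at a change of at least 1.5-fold, 1405 loops (77.9%, interval 75.9 to 79.7%) were weaker in mid-G1, where the share among all 16369 loops with a ratio was 36.7%. In early-G1 1256 loops were weaker (69.6%, all loops 31.4%). In ana/telophase 914 were (50.7%, all loops 20.4%) and in prometaphase 278 (15.4%, all loops 9.52%). In prometaphase, 159 loops (8.81%, all loops 6.46%) were at least 1.5-fold stronger with auxin. At the 3 later stages no loop was (0%, interval up to 0.21%), where the share among all loops was 0.886, 2.55 and 2.83% in turn. Since 1791 of the loops were called in a -auxin map, these shares and their gap to all loops are not independent of the calling. The share of loops at least 2-fold weaker in mid-G1 was 47.8% (all loops 16.8%).

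The structural loops of other sizes and the dual-function loops of the same size were set beside them. Short structural loops (up to 200 kb, n = 2029) had a median mid-G1 -auxin strength of 1.92, and their median log2 change was -0.70 ± 0.13 in mid-G1. Long structural loops (above 500 kb, n = 1004) had 2.75 and -0.99 ± 0.14. Dual-function loops of 200 to 500 kb (n = 1036) had 2.21 and -0.49 ± 0.19. The difference in median log2 change between mid-size and short structural loops exceeded the SD of the chromosome medians of either, whereas that between mid-size and long ones did not. These groups differ in summit width, with 25 kb summits in 5.72% of short and 48.6% of long structural loops and 20.1% of dual-function loops. With 10 kb summits alone the mid-size loops had a median strength of 2.98 and a log2 change of -1.09, between the short (1.97 and -0.73) and the long loops (3.93 and -1.36).

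The pace of rebuilding was close to that of the shorter class. By ana/telophase short structural loops had reached 46.4% ± 3.0 of their mean rise, mid-size loops 48.3% ± 2.7 and long loops 37.8% ± 4.1. By early-G1 these shares were 78.6, 77.7 and 67.2%. Mid-size and short loops differed by less than the SD over chromosomes, and long loops were behind them by more. Dual-function loops of 200 to 500 kb had reached 62.6% ± 10.7 by ana/telophase and 96.4% ± 6.2 by early-G1.

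**Figure D3:**
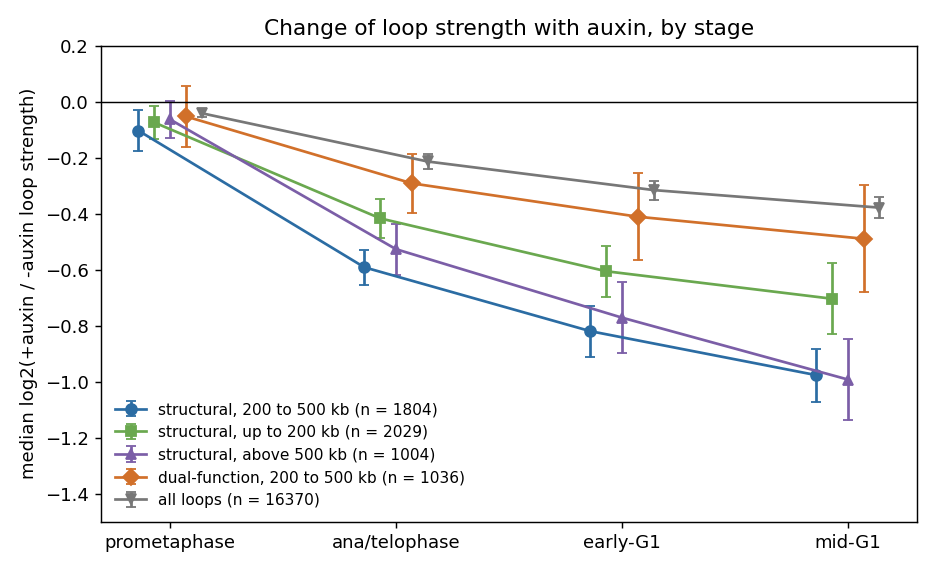
Median log2 of +auxin over -auxin loop strength (vertical axis) at the 4 stages for structural loops of 3 size ranges, dual-function loops of 200 to 500 kb and all loops; error bars are the SD of the chromosome medians. The structural loops of 200 to 500 kb go from -0.10 in prometaphase to -0.98 in mid-G1, beside -0.70 for short structural and -0.49 for dual-function loops.

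Within the range of 200 to 500 kb, longer loops were somewhat stronger in -auxin cells. The median mid-G1 -auxin strength was 2.45 for the 444 loops of up to 250 kb, 2.60 for the 400 loops of 250 to 300 kb, 2.80 for the 361 loops of 300 to 350 kb, 2.97 for the 256 loops of 350 to 400 kb, 2.76 for the 195 loops of 400 to 450 kb and 3.00 for the 148 loops above 450 kb. The +auxin medians stayed between 1.33 and 1.36 in all 6 ranges. Over all 1804 loops Spearman's rho of size with mid-G1 -auxin strength was 0.12, and across the 1428 with 10 kb summits it was 0.26, beside 0.02 in +auxin cells; loops of 1 map share its depth, and rho is given as a description. The median log2 change was -0.90 ± 0.12 in the shortest and -1.09 ± 0.34 in the longest range, a difference within the spread of chromosomes in the latter. At the edges of the rule, the 157 loops of 210 to 220 kb had a median mid-G1 -auxin strength of 2.57 and the 235 structural loops of 190 to 200 kb just outside it 2.45. The 55 loops of 490 to 500 kb had 2.73 and the 34 of 510 to 520 kb just outside 4.04. These groups differ in summit width. Of the 235 loops 33 had 25 kb summits, and of the 55 loops 19 did, whereas the other 2 groups had none. With 10 kb summits alone the loops of 190 to 200 kb had 2.63, which turns the order at the lower edge, and the 36 loops of 490 to 500 kb had 3.31.

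**Figure D4:**
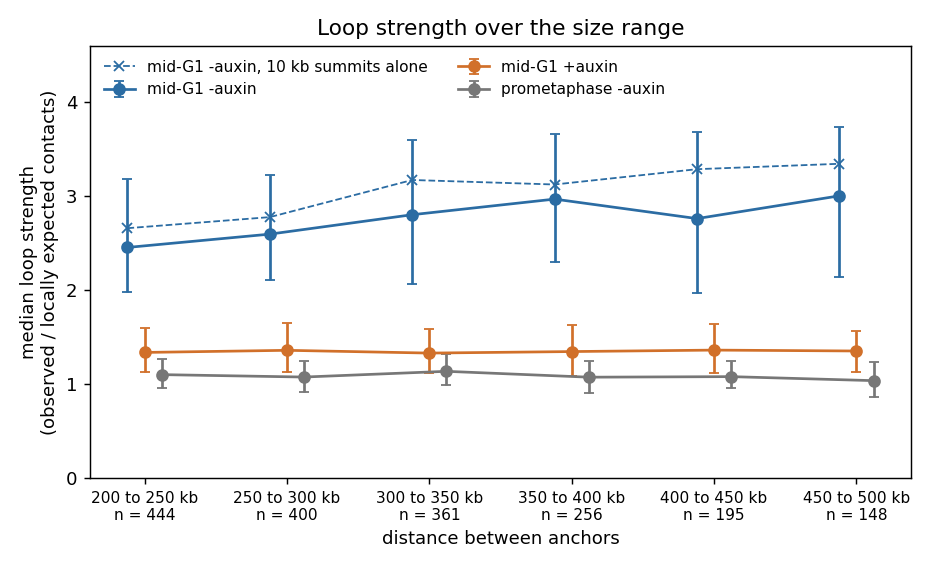
Median loop strength (vertical axis) in mid-G1 -auxin, mid-G1 +auxin and prometaphase -auxin maps over 6 ranges of distance between anchors (horizontal axis, with the number of loops); error bars span the quartiles, and the dashed line gives the mid-G1 -auxin medians of 10 kb summits alone. The mid-G1 -auxin median goes from 2.45 to 3.00 while the +auxin median stays between 1.33 and 1.36.

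The authors' stage of first detection sorts the loops by when a caller first found them. In -auxin cells 295 loops (16.4%, all loops 17.7%) were first called in ana/telophase, a further 680 (37.7%, all loops 34.2%) by early-G1 and 816 (45.2%, all loops 33.5%) by mid-G1, and the remaining 13 were called in +auxin maps alone. In +auxin cells 1738 (96.3%, interval 95.4 to 97.1%) were never called, beside 71.1% of all loops. A further 53 (2.94%, all loops 14.4%) were called in both arms, and the 13 called with auxin alone made up 0.721% (all loops 14.6%). The calls were made on the maps that give the strengths, so the classes are not independent of them. The 295 early loops had a median mid-G1 -auxin strength of 3.76, against 2.67 and 2.50 for those first called in early-G1 and mid-G1. Their median +auxin strengths were 1.56, 1.37 and 1.25.

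Not being called did not mean having no enrichment. Of the 1738 loops absent from the +auxin calls, 559 (32.2%, interval 30.0 to 34.4%) had a mid-G1 +auxin strength of at least 1.5, near the 34.3% of the 11634 loops of any kind without such a call, and their class had a median of 1.33. The 53 loops called in both arms had a median of 3.07 in -auxin and 1.97 in +auxin mid-G1 cells, and 49 of them were weaker with auxin. The 13 loops called with auxin alone had medians of 1.69 and 1.62, and 5 of them were weaker with auxin in mid-G1. Of the 34 loops first called in -auxin ana/telophase and also called with auxin, 5 were first called with auxin at the same stage, 20 at early-G1 and 9 at mid-G1.

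**Figure D5:**
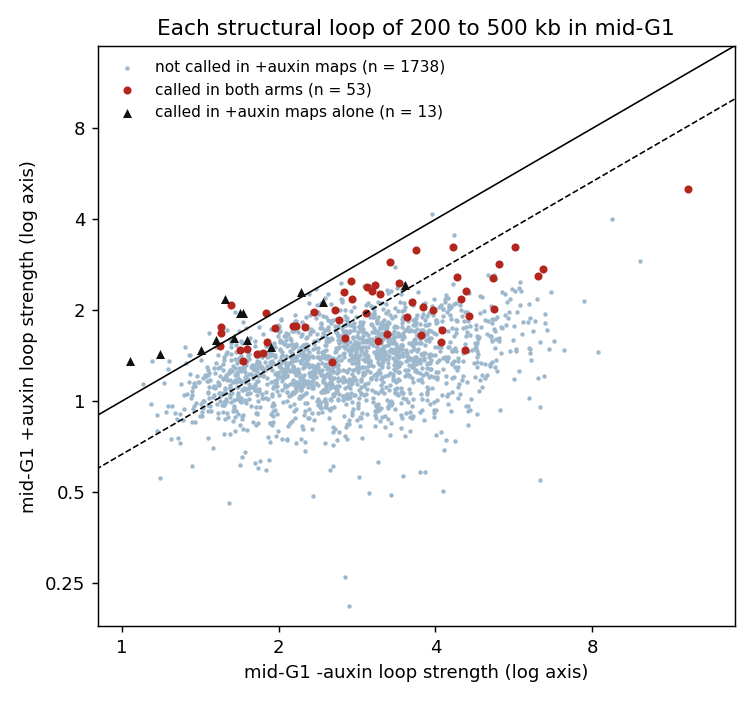
Mid-G1 loop strength without auxin (horizontal axis) and with auxin (vertical axis), both on log axes, for each of the 1804 loops, coloured by whether the loop was called in +auxin maps; the solid line marks equal strength and the dashed line a 1.5-fold loss. Most points lie below the dashed line (1405 loops), and the 53 loops called in both arms lie high on the +auxin axis, with a median of 1.97.

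The 6 strongest loops in mid-G1 -auxin cells show how far single loops ranged. The strongest joined chr1:157920001-157930000, which overlaps an exon of Fam163a, to chr1:158170001-158180000, which overlaps no protein-coding gene. Its strength, from prometaphase to mid-G1, was 2.90, 8.27, 10.2 and 12.2 in -auxin cells, and 2.82, 4.66, 4.28 and 5.05 with auxin. It was the strongest of the 1804 loops at each post-mitotic stage in both arms, was first called in ana/telophase in both, and was 2.42-fold weaker with auxin in mid-G1.
A 410 kb loop from chr8:123200001-123210000 ended at chr8:123610001-123620000, over exons of Foxf1a, which encodes a forkhead transcription factor, and Mthfsd. Its strength went from 1.24 through 5.5 and 6.28 to 9.86 in -auxin cells and from 1.41 through 1.84 and 2.61 to 2.91 with auxin. From ana/telophase on its +auxin values stayed far below the -auxin values.
The third joined chr5:143200001-143210000, outside protein-coding genes, to an exon of Fbxl18, an F-box protein gene (chr5:143630001-143640000). It measured 2.01, 4.55, 6.54 and 8.74 without and 2.62, 3.82, 3.89 and 4.01 with auxin, and so, like the strongest loop, was above 2 in every map.
The loop between exons of Enpep, which encodes an aminopeptidase (chr3:129000001-129010000), and of Egf, the gene of epidermal growth factor (chr3:129380001-129390000), had convergent motifs. It measured 1.12, 3.42, 5.56 and 8.19 without and 0.902, 1.62, 1.54 and 1.45 with auxin. Its mid-G1 value was 5.65-fold lower with auxin, although it was first called in early-G1. A translocation involving this chromosome is known in the cells from the methods.

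Of the other strong loops, the chromosome 15 loop whose motifs are printed above lay between chr15:39690001-39700000 and chr15:39960001-39970000, both at domain boundaries and outside protein-coding genes. It measured 1.39, 5.84, 5.58 and 7.72 without and 0.436, 1.73, 1.75 and 2.15 with auxin, so that its ana/telophase value in -auxin cells was already above that of early-G1. A loop ending at the start of BC034090 (chr1:157070001-157080000) measured 0.824, 3.58, 6.19 and 7.07 without and 1.31, 1.89, 1.34 and 1.48 with auxin. A loop with both anchors at boundaries joined chr2:116720001-116730000 to chr2:117050001-117060000. It completed the 4 strongest in -auxin ana/telophase among loops first called at that stage, at 5.08 against 2.19 with auxin.

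The loops with the largest losses ended below the local expectation. The largest was a 380 kb loop from chr13:104490001-104500000 to chr13:104870001-104880000, in an intron of the neurolysin gene Nln. Its strength was 0.729, 1.98, 2.50 and 2.73 in -auxin cells and 1.05, 1.06, 0.948 and 0.211 with auxin. The mid-G1 log2 change of -3.69 thus rests on 1 low value at the last stage, since in early-G1 the +auxin value was 0.948.
A 420 kb loop ending over an exon of Eepd1 (chr9:25390001-25400000) measured 1.02, 2.39, 3.92 and 6.36 without and 1.18, 1.05, 0.231 and 0.550 with auxin, and was low with auxin at both G1 stages. The chromosome 13 loop whose motifs are printed above, which ends at the start of Hspb3, a small heat shock protein gene (chr13:114450001-114460000), measured 1.34, 1.47, 2.88 and 4.13 without and 0.885, 0.635, 0.446 and 0.505 with auxin. Its +auxin values were below 1 at all 4 stages. The 3 further loops with the largest losses, over exons of Fam82b, Apaf1 and Fancc, the last a Fanconi anaemia gene, had mid-G1 log2 changes of -3.35, -2.75 and -2.73.

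Few loops went the other way. With auxin, 8 of the 1804 were stronger at each of the 3 post-mitotic stages, against 12.5% of all loops, and none of them by 1.5-fold in mid-G1. The largest gain was at a 370 kb loop from an exon of Hk2, the hexokinase 2 gene (chr6:82690001-82700000), to the start of Mogs, a glucosidase of glycoprotein processing (chr6:83060001-83070000). It measured 1.3, 1.43, 1.75 and 1.58 without and 1.41, 2.01, 1.96 and 2.18 with auxin, which in mid-G1 is a log2 difference of 0.47. Only +auxin maps gave a call. Among these 8, loops with anchors at the start of Sema7a and at that of Fam53b followed with 0.39 and 0.28, at strengths of at most 1.5.

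The loop at Runx1 was the sole case among the erythroid genes. Of 36 genes of the erythroid programme listed for this work, 34 were in the annotation and 1, Runx1, a transcription factor of blood development, had its start in an anchor of these loops. That loop, of 300 kb from chr16:92820001-92830000 to chr16:93120001-93130000, measured 1.11, 1.51, 2.16 and 1.71 without and 1.04, 1.62, 2.28 and 1.96 with auxin. It was close to equal in both arms, with a mid-G1 log2 change of 0.20, and strongest in early-G1 in both. It was called in +auxin maps alone. The share of all protein-coding genes with a start at these anchors was not set beside this count.

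A further loop was enriched in prometaphase and without CTCF. The 450 kb chromosome 8 loop whose motifs are printed above joined chr8:73810001-73820000, over an exon of Myo9b, to chr8:74260001-74270000. It measured 3.06, 3.22, 3.20 and 3.95 without and 3.37, 3.87, 3.86 and 4.17 with auxin, with no low map, although it was called in mid-G1 -auxin cells alone. The 30 printed bases at its anchors are identical. Counted in words of 36 bases, 6.06% of those in its upstream window also occur in the downstream window on the same strand. On the opposite strand 5.98% do. Their sum of 12%, in which a word found on both strands counts for each, was the highest of all 1804 loops. The median sum was 0.0771% and the 99th percentile 1.45%. The 4 other loops with a sum of at least 5% had prometaphase -auxin strengths between 0.786 and 1.21 and mid-G1 log2 changes between -2.02 and -0.57. Whether shared sequence has a part in the strength was not tested.

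Few loops were strong in prometaphase. A strength of at least 2 was measured in 20 loops without auxin (1.11%, all loops 1.91%) and in 8 with auxin (0.443%, all loops 2.1%). It was reached by 15 loops in -auxin cells alone, by 3 in +auxin cells alone and by 5 in both, a split not counted over all loops. Among the 5 were this chromosome 8 loop, the strongest loop on chromosome 1, a loop from the start of Fam161a (chr11:22900001-22910000) to exons of the exportin gene Xpo1 (chr11:23180001-23190000), and the loop ending at Fbxl18. The mid-G1 +auxin strengths of the 5 lay between 2.48 and 5.05, whereas the 15 loops high in -auxin prometaphase alone lay between 0.744 and 2.30. Before deposit the authors had removed pixels called in over 6 maps and, among pixels added in a second search, the 5% with the highest prometaphase -auxin values, and the part of these filters in the counts was not tested. Over all 1804 loops, most of them near 1, Spearman's rho between the prometaphase strengths of both arms was 0.05, against 0.37 between those in mid-G1.

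How the loops lie among other loops was read from their anchors. A loop was taken to share an anchor with another when their anchor midpoints were within 20 kb at 1 end and not at both. This was so for 1744 of the 1804 loops (96.7%, interval 95.7 to 97.4%), and 1584 shared an anchor with another structural loop. Over all loops 15527 of 16370 (94.9%) shared an anchor with any loop. Of the short structural loops 1928 of 2029 did, of the long ones 92.6%, of the dual-function loops of 200 to 500 kb 99.6% and of the CRE loops of that size 97.2%. The median number of loops sharing an anchor was 5 and the highest 20. Loops with more such neighbours were stronger and more often first called in ana/telophase. Loops and neighbours were called on the same maps, summit width was not held fixed, and other loop classes were not split in this way. The median mid-G1 -auxin strength was 2.21 for 60 loops with none, 2.38 for 345 with 1 or 2, 2.63 for 650 with 3 to 5 and 2.86 for 749 with 6 or more. The share first called in ana/telophase was 1.67, 9.57, 14.3 and 22.4%, while the median log2 change stayed between -1.0 and -0.91.

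Structural loops that share 1 anchor and lie inside each other can be compared at the same stage. In 1954 pairs a shorter structural loop (median 170 kb) lay inside one of the 200 to 500 kb loops (340 kb). The outer loop was the stronger in 55.1% of pairs in prometaphase, 67.2% in ana/telophase and 65.3% in mid-G1 -auxin cells, and in 63.2% in mid-G1 with auxin. Of 1923 such pairs in which both were called in -auxin maps, the inner loop was called first in 33.5%, both at the same stage in 37.3% and the outer first in 29.2%. In 1488 pairs the 200 to 500 kb loop (median 300 kb) was the inner one within a longer structural loop (525 kb), and the outer was the stronger in 49.6% in mid-G1 -auxin cells and in 55.5% in mid-G1 with auxin. Here the inner loop was called first in 35.6% and the outer in 25.4% of 1476 pairs. A loop enters several pairs, so these shares carry no interval.

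Boundaries of contact domains lay at many anchors. Both anchors were within 20 kb of a boundary in 367 loops (20.3%, interval 18.6 to 22.3%), 1 anchor in 853 and neither in 584. In short structural loops both anchors were at a boundary in 7.54%, in long ones in 18.3%, in dual-function loops of 200 to 500 kb in 19.98% and over all loops in 10.1%. The share depends on the distance allowed and was 7.71% within 10 kb and 39.4% within 40 kb. Loops with 2, 1 and 0 boundary anchors had median mid-G1 -auxin strengths of 3.07, 2.76 and 2.40, and median log2 changes of -1.06, -1.01 and -0.85, each with an SD of chromosome medians of 0.15 to 0.16. With 10 kb summits alone the strengths were 3.21, 3.02 and 2.75, and the log2 changes -1.11, -1.13 and -0.99, so that the order of 2 and 1 boundary anchors was turned. The recovery by ana/telophase, 48, 47.7 and 49.4%, did not follow this order.

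The boundaries at these anchors were also weaker with auxin. Boundary strength is how far the insulation score at the boundary lies below the highest score within 120 kb, in units of the chromosomal mean. The 1089 boundaries (17.1% of 6376) had median strengths of 0.107, 0.490, 0.820 and 0.944 at the 4 stages without auxin and 0.0932, 0.286, 0.472 and 0.515 with auxin. In mid-G1 their median log2 change was -0.90 ± 0.15, against -0.38 ± 0.07 for the 5287 other boundaries, and 1043 of the 1089 (95.8%) were weaker with auxin, beside 75.5% of all boundaries and 71.3% of the others. The authors clustered boundaries by these same strengths in the post-mitotic maps of both arms, so the clusters are not independent of the change. Cluster 1 (to the authors fully dependent on CTCF) held 30.2% of the 1089, cluster 2 (partly) 52.6% and cluster 3 (unaffected) 16.9%. Among all boundaries these shares were 20.4, 31.9 and 27.1%. Cluster 5, which the authors held mostly spurious and left out, held none of the 1089 and 13.6% of the others, beside 11.3% of all. It thus enters the comparison above. Boundaries at anchors of other loop classes were not described here.

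Gene starts were less frequent at the anchors than in loops as a whole. An anchor summit held the start of a protein-coding gene in 542 loops (interval 28.0 to 32.2%), against 50.3% of all loops, 34.1% of short and 31.6% of long structural loops and 68.9% of dual-function loops of 200 to 500 kb. With 10 kb summits alone the shares were 25.8% and, over all loops, 46.3%. Neither anchor summit held one in 1262 loops (70.0%, interval 67.8 to 72.0%), 1 did in 487 and both did in 55. The authors' definition allows a CRE at 1 anchor at most, so the share of gene starts is not independent of how the loops were chosen. Loops with a gene start at 0, 1 and 2 anchors had median mid-G1 -auxin strengths of 2.85, 2.42 and 1.88 and median log2 changes of -1.03 ± 0.14, -0.84 ± 0.09 and -0.67 ± 0.29. The +auxin medians were 1.35, 1.34 and 1.24. Wider summits hold more gene starts, and with 10 kb summits alone the log2 changes were -1.12, -1.0 and -0.76. Between the anchors lay a median of 3 gene starts, and 115 loops (6.37%) enclosed none.

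Loops also overlapped loops of other kinds. At least 1 CRE loop lay entirely between the anchors of 585 loops (32.4%), and a CRE loop with 1 end inside and 1 end outside crossed 970 (53.8%). Among the 5397 loops of any kind of 200 to 500 kb these shares were 35.8 and 56.4%, and among dual-function loops of that size 46.1 and 59.9%. The crossed loops had a median mid-G1 log2 change of -0.97 and the others of -0.98. Loops crossed by other structural loops (956, 53.0%, beside 54.0% of loops of any kind of that size) had -0.91 and those not crossed -1.05, with median mid-G1 -auxin strengths of 2.61 and 2.80.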

How the data were processed

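The authors made 18 in situ Hi-C libraries of 8 conditions. A further 4 libraries, from cells given triptolide, do not enter here. The members and the gene list were chosen with earlier results of these data known.

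Per the labels, Bowtie2 and mm9 were used; the authors aligned reads through HiC-Pro, merged replicates, and called loops with a modified HICCUPS on 10 and 25 kb bins. As loop strength the authors deposited the ratio of contacts observed to contacts expected locally, and as boundary strength a signal, the difference of unlogged insulation scores. Loop categories, detection stages and clusters of boundaries are deposited labels. Columns of per-sample values with no sample numbered 0. The depth behind a single value was not examined here.

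The change with auxin is log2(+auxin/-auxin), with no pseudocount, since no member had a value of 0. Recovery is the rise of the mean strength from prometaphase over that to mid-G1. Genome tiles with over 50% unknown bases were left out. Gene positions are those of protein-coding entries in GENCODE vM1 on NCBIM37, which is mm9, and the printed sequences come from that assembly. Loops were named by fixed rules: the 6 strongest in mid-G1 -auxin cells, the 6 largest losses and 6 largest gains among loops of 1 direction at all 3 post-mitotic stages, the 4 earliest by ana/telophase strength, and those with a listed erythroid gene start. The 5 loops of at least 2 in both prometaphase maps and the 36-base word count were chosen after their values were seen, and 1 of these loops is not reported here by name. Statistics were tested on simulated data. Computation used numpy 2.4.6, pandas 2.3.3, scipy 1.17.1 and matplotlib 3.10.9 in Python 3.11.15.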

Additional observations from a re-analysis of the deposited data

How the results depend on the processing

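Of 151 values under alternative settings for 40 results, 114 moved by less than the SD of chromosome medians or stayed within the Wilson interval. A change of sign, possible for the log2 changes alone, was seen in 0, and 37 moved by more than that SD or interval. Leaving out chromosome 3, narrowing the size range to 220 to 480 kb, and taking medians or ratios of means moved none beyond that. With 10 kb summits alone, median -auxin strengths at the 3 post-mitotic stages were 1.98, 2.55 and 2.98, and median log2 changes -0.69, -0.95 and -1.09. The shares at least 1.5-fold weaker from prometaphase to mid-G1 were then 18.8, 60.6, 79.97 and 86.7%, that stronger in prometaphase was 10.4%, and the long structural loops had 3.93 and -1.36. Relative to the median of all loops, the changes were -0.38, -0.50 and -0.60. At 2-fold, the shares weaker were 4.49, 17.7, 36.7 and 47.8%, and that stronger in prometaphase 1.83%. With 0.1 added to both strengths, the shares at least 1.5-fold weaker at the first 3 stages were 13, 46.8 and 67.1%, and that stronger in prometaphase was 7.32%. Among loops of at least 1.5 in mid-G1 -auxin cells, 80.4% were weaker in mid-G1. With boundaries within 10 kb, 52.1% of loops had 0, 40.2% had 1 and 7.71% had 2 boundary anchors; within 40 kb, 15.0% had 0 and 39.4% had 2. In the anchor summit alone, 11.1% held the motif at both anchors and 68.9% of 177 single-strand pairs were convergent; with the 9 letters AGGGGGCGC, these were 2.49% and 37.5% of 40 pairs, so that convergent pairs were not the majority there. An anchor was shared by 93.6% of loops within 10 kb and 97.8% within 30 kb. The cause of these differences was not tested. No paired analysis was possible because the 2 tables used here hold values of merged replicates, and no replicate could be left out for the same reason. Maps of single libraries were not analysed here.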

Other observations

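The loops were spread over all 20 chromosomes, from 34 on chromosome X to 189 on chromosome 2, or from 2.04 to 11.3 per 10 Mb of chromosome, the latter on chromosome 11. They made up 7.59% of all loops on chromosome 17 and 14.0% on chromosome 2. Median mid-G1 -auxin strength ranged from 2.35 on chromosome 12 to 2.99 on chromosome 10, and the +auxin median from 1.17 on chromosome 13 to 1.41 on chromosome 2. Recovery by ana/telophase was lowest on chromosome 12, at 40.3%, and highest on chromosome 8, at 51.9%.

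Loops that did not peak in mid-G1 were also described. The 327 loops strongest in early-G1 -auxin cells had medians of 2.39 there and 2.19 in mid-G1, and with auxin 1.36 and 1.38. Their median mid-G1 log2 change was -0.66 ± 0.14, against -1.05 ± 0.12 for the 1450 loops strongest in mid-G1; the -auxin mid-G1 value enters both the choice of these loops and the change, so nothing is read from the difference.

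Loops with 2 or more boundaries between their anchors, more than 20 kb from either, numbered 88 (4.88%) and had a median size of 430 kb. The median mid-G1 -auxin strength of these was 1.97, against 2.81 for the 983 loops with no boundary inside (median 280 kb) and 2.61 for the 733 with 1. The median log2 changes were -0.59 ± 0.40, -0.99 ± 0.09 and -0.99 ± 0.19. Summit width, with which strength also differs, was not held fixed in this comparison.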
